A study of Homo sapiens with 9 samples.

Results

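The genes described here build the adherens junction, the cell-cell contact at which cadherins of neighbouring epithelial cells bind each other. Members were taken by gene symbol: CDH1 (E-cadherin), CDH3 (P-cadherin), CTNNA1, CTNNB1 and CTNND1 (alpha-, beta- and p120-catenin), JUP (plakoglobin, also called gamma-catenin), VCL (vinculin), NECTIN1 and AFDN (afadin). Of the 48803 probes on the array, 26 carried one of these symbols, and they covered 8 of the 9 genes. AFDN had no probe named in the annotation used. A probe was counted as above background on an array at a detection p under 0.01, and it was tested where this held on at least 3 of the 9 arrays. By that rule 12 of the 26 probes, from 7 genes, were tested, 13 were above background on no array, and 1 was above background on 1 array.

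The classical cadherins reach out of the cell to bind the same cadherin on the neighbour, and inside the cell their tail holds a chain of catenins. Beta-catenin or plakoglobin sits on the tail and recruits alpha-catenin, which ties the complex to actin together with vinculin, while p120-catenin binds nearer the membrane and slows the removal of cadherin from the surface. Nectins form a second adhesion system whose tail binds afadin, and in mammary epithelium E-cadherin is known from the luminal and P-cadherin from the basal layer. Beta-catenin and plakoglobin also have roles away from the membrane, beta-catenin as a partner of TCF/LEF transcription factors and plakoglobin as a part of desmosomes.

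RNA came from MCF10A, an immortalized, non-tumorigenic human mammary epithelial cell line, measured on Illumina bead arrays. The 3 groups of 3 samples each were cells with the RND1 hairpin sh-34, cells with a different RND1 hairpin, sh-35, and cells with a scramble hairpin. All of them had received their hairpin by lentivirus and had been selected with puromycin, so the scramble cells share the infection and the drug. RND1, the target of both hairpins, encodes a GTPase that regulates actin. The labels give neither the hairpin sequences nor the harvest time, and nothing in them states whether replicates came from separate cultures. All p-values therefore rest on the spread between arrays of a group, which may be technical, and 3 arrays a group limit the precision.

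RND1 itself was above background in 0 of 9 samples, at signals of 27.7 to 49.6, so the knockdown itself could not be checked here. Each array called 11473 to 12902 probes above background, and the dimmest signal so called was 110.1 to 144.1 on the different arrays. The basal mammary keratin and integrin genes KRT5, KRT14 and ITGB4 were above background on all 9 arrays, while TP63 and KRT17 had no named probe. The summed signal of these 3 genes was 11888 to 12419 in sh-34, 12345 to 14000 in sh-35 and 17691 to 19704 in scramble, but they did not move together. KRT14 was lower with both hairpins, at −1.84 with sh-34 and −1.08 with sh-35 (log2; highest limma adjusted p = 1.1e-06). KRT5 was lower with sh-34 at −0.42 (limma adjusted p = 0.0022) and read −0.04 with sh-35 (adjusted p = 0.70). ITGB4 was higher with sh-34 at 0.41 (limma adjusted p = 0.0092), which neither median scaling nor the series matrix values called, and lower with sh-35 at −0.33 (adjusted p = 0.025), a call lost on leaving out any 1 of 4 samples. Of 6 fibroblast markers DCN alone was tested, COL1A1 was above background on 1 array and the other four on none. The summed signal of the 6 fibroblast markers was 3114 to 4040 in sh-34, 6117 to 6602 in sh-35 and 4371 to 5714 in scramble, and the DCN probe alone read 2866 to 3817, 5810 to 6340 and 4155 to 5459 in the same groups. The endothelial marker PECAM1 was above background on 3 arrays and the leukocyte marker CD68 was measurable, whereas CDH5, VWF, PTPRC and CD3E were above background on none. The brightest CD68 probe read 547 to 612 in sh-34, 841 to 952 in sh-35 and 821 to 905 in scramble. The part of these other cell type markers in the results was not tested.

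Promoter windows were available from RefSeq (GRCh38.p14) for 5 of the genes, and 3 of the 9 windows are printed because they belong to JUP, whose probes fell with sh-35, and to CTNNB1, its close relative, whose probes did not pass the test. Each runs from 250 bases before to 50 bases after an annotated start. Capitals mark CACCTG and CAGGTG, which are one E-box read on the opposite strands, the sequence that SNAI and ZEB repressors are known to bind in the CDH1 promoter. The JUP windows lie on the minus strand at chr17:41786662-41786961 and chr17:41785927-41786226, and the CTNNB1 window on the plus strand at chr3:41199255-41199554.
JUP window 1: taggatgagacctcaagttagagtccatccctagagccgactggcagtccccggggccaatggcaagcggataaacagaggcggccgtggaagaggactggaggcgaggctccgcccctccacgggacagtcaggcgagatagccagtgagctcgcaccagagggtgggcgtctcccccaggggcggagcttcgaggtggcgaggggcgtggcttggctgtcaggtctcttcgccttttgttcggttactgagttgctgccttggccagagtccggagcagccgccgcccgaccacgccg
JUP window 2: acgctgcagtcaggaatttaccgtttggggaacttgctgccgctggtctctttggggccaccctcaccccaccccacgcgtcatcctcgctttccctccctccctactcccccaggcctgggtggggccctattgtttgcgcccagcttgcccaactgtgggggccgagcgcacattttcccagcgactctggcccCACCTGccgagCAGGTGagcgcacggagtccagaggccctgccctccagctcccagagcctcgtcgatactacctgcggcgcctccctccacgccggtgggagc
CTNNB1: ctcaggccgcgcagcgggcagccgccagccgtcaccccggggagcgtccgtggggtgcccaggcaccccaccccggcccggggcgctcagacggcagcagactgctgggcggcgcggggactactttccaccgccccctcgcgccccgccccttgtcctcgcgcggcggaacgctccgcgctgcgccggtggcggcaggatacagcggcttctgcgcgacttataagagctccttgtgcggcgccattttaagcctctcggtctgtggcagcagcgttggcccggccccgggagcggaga
JUP window 2 held CACCTG with its first base 54 bases before the start and CAGGTG 43 bases before it, with no overlap between them. JUP window 1 and the CTNNB1, CTNNA1 and VCL windows held neither. The AFDN window held CACCTG 4 times. Of 34943 promoter windows of this length, 20.6% contain the motif, so its presence in one window is a description only. RefSeq windows of CDH1, CDH3, CTNND1 and NECTIN1 were not used here.

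Across the tested probes, the cadherins and plakoglobin were lower with an RND1 hairpin, and most of the other junction genes did not pass the test. With sh-34, 4 of the 12 probes were lower than in scramble (CDH1, CDH3, JUP probe 1 and NECTIN1), 0 were higher and 8 did not pass, by limma at an adjusted p under 0.05. The same call was made for 17.3% of all 12866 tested probes on the lower and 17.5% on the higher side. With sh-35, 5 of the 12 probes were lower (CDH1, CDH3 and all 3 of JUP), 0 were higher and 7 did not pass, against 20.1% lower and 19.1% higher among all tested probes. In sh-35 compared with sh-34, 5 probes were lower (again CDH1, CDH3 and all 3 of JUP), 0 were higher and 7 did not pass, again beside 20.1% and 19.1% of all probes. Counted with 1 probe a gene, 3 of the 7 tested genes were lower in that comparison, beside 21.0% of all 8931 genes. At an unadjusted p under 0.05 limma had 4 lower probes with sh-34, 9 lower with sh-35, and 8 lower and 1 higher between the hairpins. The share of all tested probes at this unadjusted threshold was not counted, so these numbers are a description only. The median log2 change of the 12 probes was −0.04 with sh-34, −0.25 with sh-35 and −0.30 between the hairpins, beside 0.02, −0.01 and −0.03 over all tested probes. The 2 hairpin comparisons share their scramble samples, so their values are given side by side.

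**Figure D1:**
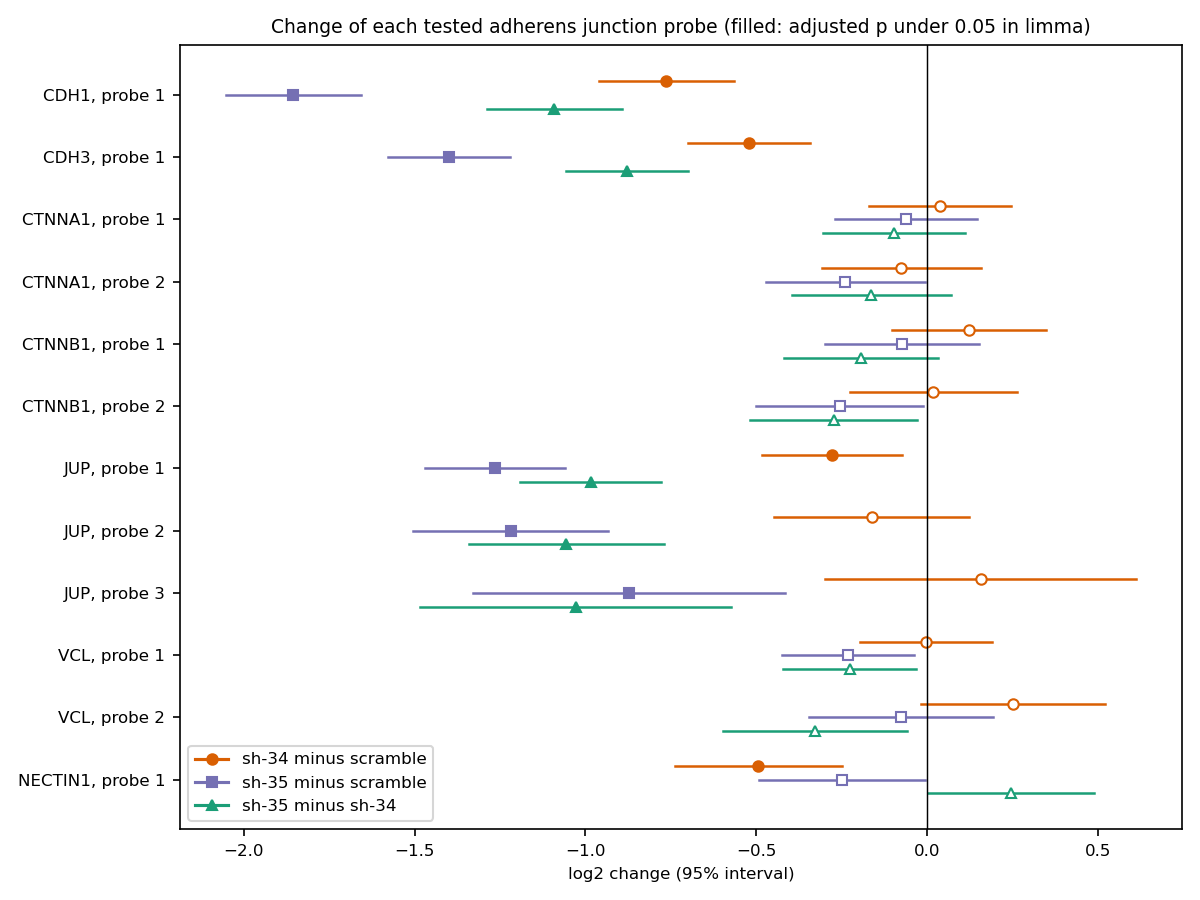
Log2 change (horizontal axis) of each of the 12 tested adherens junction probes for sh-34 minus scramble (circles), sh-35 minus scramble (squares) and sh-35 minus sh-34 (triangles), with 95% intervals; filled symbols have a limma adjusted p under 0.05. CDH1, CDH3 and the JUP probes lie left of 0 with sh-35, at −1.85 for CDH1 and −1.40 for CDH3, while the CTNNA1, CTNNB1 and VCL symbols are all open.

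CDH1, the main cadherin of epithelial adherens junctions, was lower with both hairpins and lowest with sh-35. Its only probe read 1989, 1712 and 1714 in sh-34, 771, 971 and 935 in sh-35, and 3620, 3419 and 2925 in scramble (deposited signal, replicates 1 to 3). All 9 values were above background, and the 3 groups did not overlap: every sh-35 sample lay below every sh-34 sample, and every sh-34 sample below every scramble sample. Normalized log2 levels averaged 10.83 ± 0.11 in sh-34, 9.74 ± 0.11 in sh-35 and 11.60 ± 0.05 in scramble (SD, n = 3 each). With sh-34, CDH1 fell by 0.76 on the log2 scale (SE 0.09; limma adjusted p = 8.5e-05), which left 58.9% of the scramble level (95% interval 51.3% to 67.5%). With sh-35 it fell by 1.85 (SE 0.09; limma adjusted p = 2.1e-07), which left 27.6% (24.1% to 31.7%). Fewer cells expressing CDH1 and less CDH1 RNA per cell cannot be told apart in these bulk samples.

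CDH3, the cadherin of the basal mammary layer, followed the same order. Its probe read 2337, 2498 and 2519 in sh-34, 1365, 1369 and 1377 in sh-35, and 4177, 3871 and 3430 in scramble (deposited signal). The groups again did not overlap. Normalized log2 levels averaged 11.28 ± 0.09 in sh-34, 10.41 ± 0.07 in sh-35 and 11.81 ± 0.03 in scramble (SD, n = 3 each). Relative to scramble, the log2 difference was −0.52 (SE 0.08; limma adjusted p = 0.00060) for sh-34 and −1.40 (SE 0.08; limma adjusted p = 4.8e-07) for sh-35, or 69.7% and 37.9% of the scramble level. In the authors' deposited table, which lists 358 probes, CDH1 and CDH3 are the adherens junction members present. The authors' deposited table gives signed folds of −1.84 for CDH1 and −1.56 for CDH3 with sh-34, and −3.73 and −2.78 with sh-35. These folds equal ratios of the deposited signals before quantile normalization, unlike the changes above. Every probe listed there changed by at least 1.40-fold with each hairpin.

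CDH1 and CDH3 are adjacent coding genes on chromosome 16, between ZFP90 and TANGO6, in RefSeq GRCh38.p14. For ZFP90 the log2 difference from scramble was 0.37 for sh-34 (SE 0.09; limma adjusted p = 0.0078) and −0.02 for sh-35 (adjusted p = 0.85), so the neighbour on the CDH3 side was higher with sh-34 and did not pass the test with sh-35. TANGO6 on the CDH1 side was above background on 0 arrays. Of the coding neighbours of JUP on chromosome 17, HAP1 was above background on 0 arrays and P3H4 changed by −0.37 with sh-34 (limma adjusted p = 0.020) and −0.16 with sh-35 (adjusted p = 0.26).

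**Figure D2:**
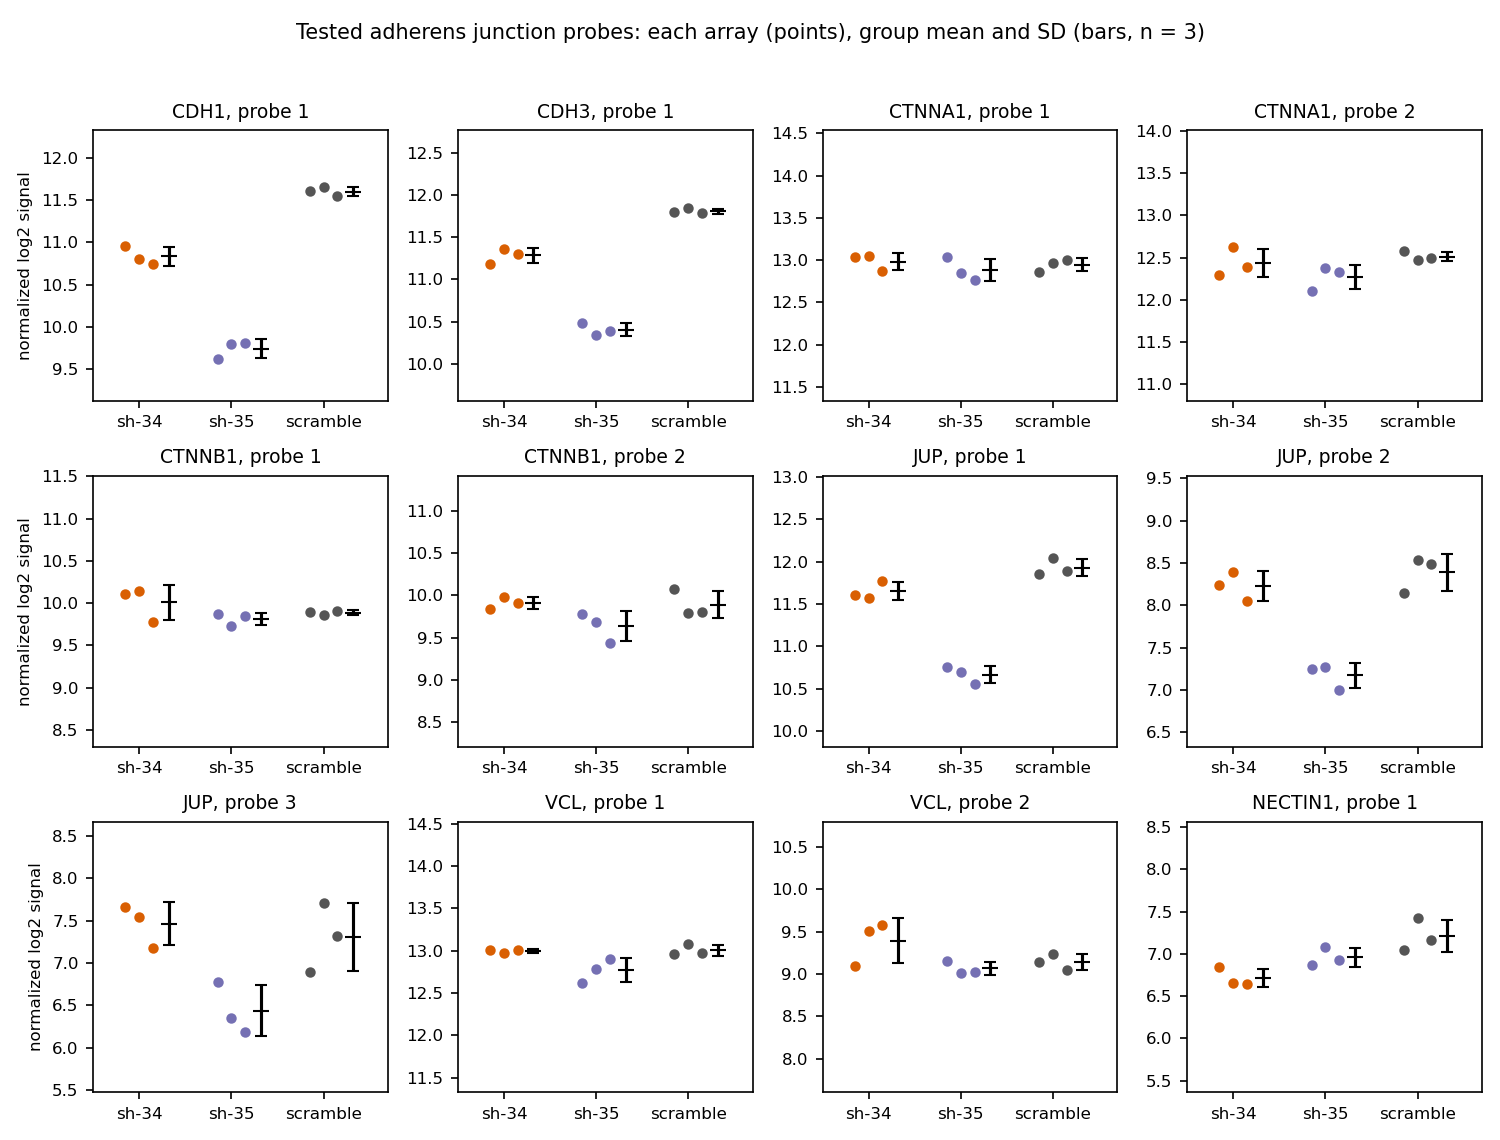
Normalized log2 signal (vertical axis, a separate range but equal span in each panel) of the 12 tested probes, with 1 point per sample in sh-34, sh-35 and scramble, and the group mean with its SD (n = 3). The CDH1 and CDH3 points form 3 separate levels, with means of 10.83, 9.74 and 11.60 for CDH1 in sh-34, sh-35 and scramble; the JUP points separate sh-35 from the other groups; the CTNNA1 and CTNNB1 groups lie close together.

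JUP encodes plakoglobin, which can take beta-catenin's place on the cadherin tail and also anchors desmosomal cadherins. Its brightest probe read 3158, 2879 and 3482 in sh-34, 1631, 1720 and 1515 in sh-35, and 4325, 4365 and 3678 in scramble (deposited signal). The sh-35 samples stood well below the others, and the sh-34 samples lay just below scramble without overlap. On the log2 scale, sh-34 differed from scramble by −0.28 (SE 0.09; limma adjusted p = 0.038) and sh-35 by −1.26 (SE 0.09; limma adjusted p = 2.1e-06). The fall with sh-34 was no longer called without scramble replicate 2 (adjusted p = 0.13), scramble replicate 3 (0.066), sh-34 replicate 1 (0.098) or sh-34 replicate 2 (0.12), without a filter on dim probes (0.12), or with replicate number as a block (0.061), all by limma.

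The other JUP probes moved with sh-35 in the same direction. JUP probe 2, designed to the same transcript accession as the brightest probe, read 321, 346 and 289 in sh-34, 180, 196 and 159 in sh-35, and 341, 393 and 352 in scramble. The sh-34 and scramble ranges overlapped, and sh-35 lay below both. The log2 difference from scramble was −0.16 (SE 0.13; limma adjusted p = 0.36) for sh-34 and −1.22 (SE 0.13; limma adjusted p = 2.7e-05) for sh-35. JUP probe 3, assigned to a different accession, was dim, being above background in 3 sh-34, 1 sh-35 and 3 scramble samples. Its signal was 227, 203 and 171 in sh-34, 137, 118 and 103 in sh-35, and 159, 228 and 172 in scramble. Relative to scramble, the log2 difference was 0.16 (SE 0.21; limma adjusted p = 0.59) for sh-34 and −0.87 (SE 0.21; limma adjusted p = 0.0060) for sh-35. All 3 JUP probes were therefore called lower with sh-35, at 41.6%, 43.0% and 54.6% of their scramble levels, while 1 of the 3 was called lower with sh-34.

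CTNNB1 encodes beta-catenin, the other protein that binds this site on the cadherin tail. Of its 7 probes, 5 were above background on no array, with signals of 23.9 to 65.0. CTNNB1 probe 1 read 1121, 1098 and 891 in sh-34, 906, 926 and 952 in sh-35, and 1116, 966 and 921 in scramble (deposited signal). The 3 groups overlapped. On the log2 scale, sh-34 differed from scramble by 0.12 (95% interval −0.10 to 0.35; limma adjusted p = 0.39) and sh-35 by −0.07 (−0.30 to 0.15; adjusted p = 0.60). CTNNB1 probe 2 read 926, 985 and 982 in sh-34, 862, 902 and 729 in sh-35, and 1270, 926 and 861 in scramble. After normalization its sh-35 samples lay below all sh-34 and all scramble samples. The log2 difference from scramble was 0.02 (95% interval −0.23 to 0.26; limma adjusted p = 0.92) for sh-34 and −0.26 (−0.50 to −0.01; adjusted p = 0.091) for sh-35. Neither probe passed the test in a comparison with scramble, and the intervals leave room for a fall of up to 0.50 on the log2 scale with sh-35.

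CTNNA1 encodes alpha-catenin, the link between the cadherin-bound catenins and actin. CTNNA1 probe 1 read 8369, 8031 and 7438 in sh-34, 7800, 7388 and 6831 in sh-35, and 8648, 8342 and 8021 in scramble (deposited signal). After normalization its groups overlapped, with log2 changes of 0.04 (95% interval −0.17 to 0.25; limma adjusted p = 0.79) with sh-34 and −0.06 (−0.27 to 0.15; adjusted p = 0.64) with sh-35. CTNNA1 probe 2 changed by −0.08 (limma adjusted p = 0.61) with sh-34 and by −0.24 (adjusted p = 0.094) with sh-35. After normalization its sh-35 samples lay below all scramble samples. The sh-35 change passed with median scaling in place of quantile normalization, at −0.37 (limma adjusted p = 0.041). CTNND1, which encodes p120-catenin, had 5 probes and none was above background on any array. Their signals were 29.1 to 98.1 with a lowest detection p of 0.016, so the arrays give no level for it.

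**Figure D3:**
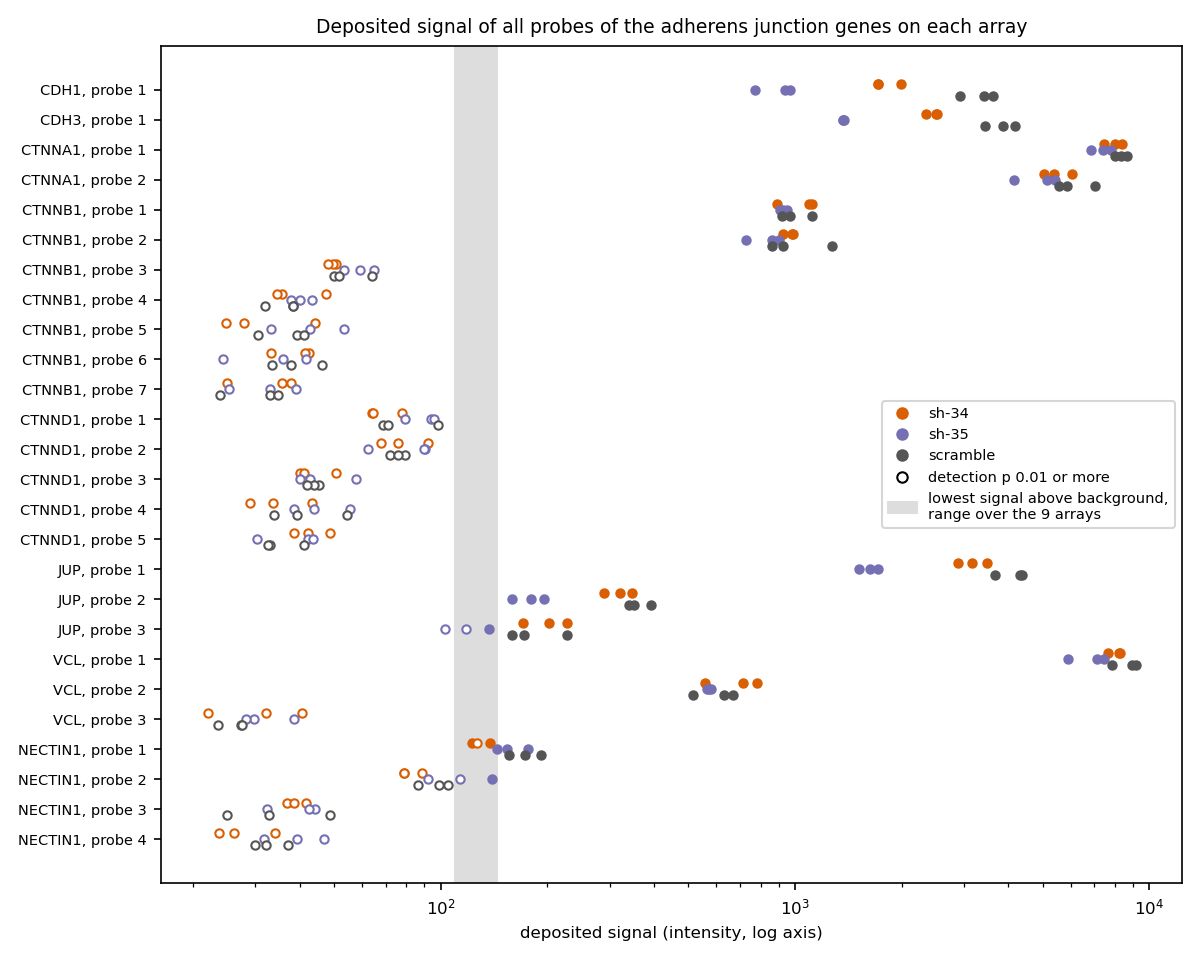
Deposited signal (horizontal log axis) of all 26 probes of the adherens junction genes, with 1 point per sample in sh-34, sh-35 and scramble; open points have a detection p of 0.01 or more and the grey band spans the dimmest signal called above background on each array, 110.1 to 144.1. All CTNND1 points and 5 of the 7 CTNNB1 probes lie left of the band, and the CDH1 and CDH3 points lie far right of it.

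VCL encodes vinculin, an actin-binding protein that joins the junction when alpha-catenin is under tension and also sits at focal adhesions. VCL probe 1 read 8232, 7660 and 8257 in sh-34, 5885, 7126 and 7471 in sh-35, and 9154, 8956 and 7828 in scramble (deposited signal). Its normalized sh-35 values lay below those of both other groups. Relative to scramble, the log2 difference was −0.00 (95% interval −0.20 to 0.19; limma adjusted p = 0.97) for sh-34 and −0.23 (−0.43 to −0.04; adjusted p = 0.057) for sh-35. The sh-35 value missed the threshold here and passed it in 7 of the alternatives, including median scaling (−0.38; limma adjusted p = 0.020) and leaving out sh-35 replicate 3 (−0.30; adjusted p = 0.030). VCL probe 2, assigned to another accession, changed by 0.25 (limma adjusted p = 0.14) with sh-34 and −0.08 (adjusted p = 0.65) with sh-35. Without sh-34 replicate 1, VCL probe 2 was higher with sh-34, by 0.40 (limma adjusted p = 0.012). VCL probe 3 was above background on no array.

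NECTIN1 encodes an adhesion molecule of the second system at these contacts, and it was the member that was lower with sh-34 but not called with sh-35. Its tested probe, assigned to the accession of one of its splice variants, read 138, 123 and 127 in sh-34, 144, 177 and 154 in sh-35, and 173, 192 and 156 in scramble (deposited signal). It was above background in 2 sh-34, 3 sh-35 and 3 scramble samples, close to the detection limit throughout. On the log2 scale, sh-34 differed from scramble by −0.49 (SE 0.11; limma adjusted p = 0.0055) and sh-35 by −0.25 (SE 0.11; adjusted p = 0.098). The difference between the hairpins was 0.24 and did not pass (limma adjusted p = 0.10), and without scramble replicate 1 the sh-35 change was called (−0.33; adjusted p = 0.047). Of the 3 other NECTIN1 probes, 1 was above background on 1 sh-35 array and 2 on none.

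The difference between the hairpins was tested in the same model. CDH1 was lower with sh-35 than with sh-34 by −1.09 on the log2 scale (SE 0.09; limma adjusted p = 5.0e-06), and CDH3 by −0.88 (SE 0.08; limma adjusted p = 1.2e-05). The JUP probes differed by −0.99 (SE 0.09; limma adjusted p = 1.4e-05), −1.06 (SE 0.13; adjusted p = 8.6e-05) and −1.03 (SE 0.21; adjusted p = 0.0023). For each of these 5 probes every sh-35 sample lay below every sh-34 sample. The hairpin groups were separate for 8 of the 12 tested probes. These included CTNNB1 probe 2 and VCL probe 1, lower with sh-35, and NECTIN1, higher with sh-35, none of them called. The share of all probes with separate groups was not counted. The CTNNA1 probes differed by −0.10 and −0.16, the CTNNB1 probes by −0.19 and −0.27 and the VCL probes by −0.23 and −0.33, and none of these passed the limma test over all probes (lowest adjusted p = 0.053). VCL probe 2 did so without background correction (adjusted p = 0.042), with an offset of 50 (0.038), among probes above background on all 9 arrays (0.035) and without sh-34 replicate 1 (−0.48; adjusted p = 0.0038). Others passed with a single sample left out, VCL probe 1 without sh-35 replicate 3 (−0.29; adjusted p = 0.032), CTNNB1 probe 1 without sh-34 replicate 3 (−0.31; adjusted p = 0.022) and CTNNB1 probe 2 without sh-35 replicate 1 (−0.35; adjusted p = 0.046).

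Over the 9 arrays, the brightest probes of the member genes differed in how closely they tracked CDH1. Pearson's r with CDH1 was 0.982 for CDH3, 0.955 for JUP and 0.795 for VCL, against 0.389 for NECTIN1, 0.304 for CTNNB1 and 0.268 for CTNNA1. The 5th and 95th percentiles over the 8931 tested genes were −0.901 and 0.888, so many genes follow the same 3 group levels, and CDH3 and JUP lay above the upper one. The 9 points share their groups and arrays, and r is given as a description. The genes with the highest r were PFKFB3, a glycolytic regulator (0.997), SPRING1 (0.994), the kinase gene PAK6 (0.993), CRB3, an apical polarity protein (0.993), and ASMTL (0.993). CRB3 differed from scramble by −0.92 (SE 0.09) for sh-34 and by −2.21 (SE 0.09) for sh-35. The genes with the lowest r were the formyl peptide receptor FPR1 (−0.996), the serine protease inhibitor SERPINA5 (−0.995), the spindle genes ASPM (−0.994) and FAM83D (−0.993), and RMI1 (−0.993). SERPINA5 was above background on 0 scramble and 2 sh-34 arrays, and PAK6 on 1 sh-35 array. The r of SERPINA5 and PAK6 therefore rests partly on values below background. FPR1 differed from scramble by 0.90 (SE 0.08) for sh-34 and by 1.94 (SE 0.08) for sh-35. CRB3 and FPR1 were picked by r with CDH1 on these same arrays. Differences between the groups follow from that choice, so no p-value is given for them.

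Other cadherins and catenins were mostly undetected. Of 20 other classical and type II cadherins, 2 had no named probe, 14 were above background on no array and 4 were tested. CDH2, N-cadherin of neural and mesenchymal cells, averaged 10.50 ± 0.09 in sh-34, 10.48 ± 0.08 in sh-35 and 10.37 ± 0.12 in scramble (log2, SD, n = 3 each), and its changes of 0.13 and 0.11 did not pass (limma adjusted p = 0.30 and 0.39). CDH11, a cadherin of mesenchymal cells, was above background on all 3 sh-35 arrays and on none in sh-34 or scramble. Taking the dimmest signal above background as the limit on each array, its sh-35 level was at least 1.23-fold higher than scramble. Against sh-34 it was at least 1.27-fold higher. CDH11 met the filter only through its sh-35 arrays, the group where it was high, so no p-value is given. CDH10 was lower with sh-34, at −1.02 (SE 0.16; limma adjusted p = 0.00050), where 1 of 3 arrays was above background, and read −0.29 with sh-35. Among the other catenins CTNNAL1, an alpha-catenin relative, was higher with sh-34 at 0.66 (SE 0.09; limma adjusted p = 0.00031) and read 0.07 with sh-35. PKP4, of the p120 family, was higher with sh-35 at 0.55 (SE 0.10; limma adjusted p = 0.0011) and read 0.27 with sh-34 (adjusted p = 0.050), which passed in 6 of the alternatives.

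Genes on the actin side of the junction were counted with the brightest probe of each gene. Of 11 tested, 5 were lower with sh-34 and the other six did not pass, beside 17.8% lower over all 8931 genes. With sh-35, 6 were lower and 5 did not pass, beside 20.5%. CTTN, 1 of these 6, read −0.42 at its brightest probe (limma adjusted p = 0.0035) but −0.06 and −0.01 at its other tested probes. ZYX, also counted lower with sh-35, did not pass at its second probe (adjusted p = 0.18). TES passed with sh-35 at its second probe only (−0.35; adjusted p = 0.035). Without scramble replicate 2, 3 were lower and 1 was higher with sh-34, and without a filter on dim probes 3 were lower. The list medians were −0.22 and −0.32, against 0.02 and −0.02 over all genes. ACTN4, an actin crosslinker, changed by −0.39 with sh-34 and −0.83 with sh-35, AJUBA, a LIM protein that binds alpha-catenin, by −0.34 and −0.68, and LIMA1, an actin-bundling LIM protein, by −0.35 and −0.70. Each passed with both hairpins (highest limma adjusted p = 0.030), although the sh-34 calls of ACTN4 and AJUBA were lost on leaving out any 1 of 2 and any 1 of 4 samples. LPP, a LIM protein of cell contacts, was lower with sh-34 at −1.29 (SE 0.09; limma adjusted p = 3.0e-06) and read 0.04 with sh-35 (adjusted p = 0.75), and the hairpins differed by 1.33 (limma adjusted p = 1.7e-06).

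Among nectins and partners of afadin and p120, 3 of 9 genes were tested. PVR, a nectin-like adhesion molecule, was lower with both hairpins, at −0.62 (SE 0.11; limma adjusted p = 0.0016) and −0.36 (adjusted p = 0.025), and the sh-35 call was lost on leaving out any 1 of 4 samples. NECTIN3 was higher with sh-35 at 0.60 (SE 0.13; limma adjusted p = 0.0042) and read 0.29 with sh-34, where its second probe was called (0.46; adjusted p = 0.0089). NECTIN2 read −0.40 with sh-34 and −0.10 with sh-35, and neither passed.

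Genes of cadherin trafficking, cleavage and phosphorylation moved in both directions. Of 16 tested, 5 were lower, 3 higher and 8 not called with sh-34, and 7 were lower, 3 higher and 6 not called with sh-35, beside 17.8% lower and 18.2% higher over all genes with sh-34 and 20.5% and 19.8% with sh-35. ADAM10, the protease that sheds the E-cadherin ectodomain, was higher with both hairpins, at 0.28 (SE 0.08; limma adjusted p = 0.022) and 0.55 (SE 0.08; adjusted p = 0.00035). PTPRM, a receptor phosphatase that associates with cadherins, was higher at 0.76 and 0.59 (highest limma adjusted p = 0.00024). PTPRF, another receptor phosphatase, was lower at −0.30 and −0.69, and SRC, the tyrosine kinase, was lower at −0.58 and −0.33 (highest limma adjusted p = 0.040). With median scaling 1 gene of this list was higher with sh-34. With single samples left out the number of called genes in it was 4 to 8 with sh-34, lowest without scramble replicate 2, and 6 to 9 with sh-35, lowest without scramble replicate 3. The sh-34 calls of ADAM10 and PTPRF were lost on leaving out any 1 of 4 and any 1 of 7 samples, and the sh-35 call of SRC on leaving out any 1 of 2.

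**Figure D4:**
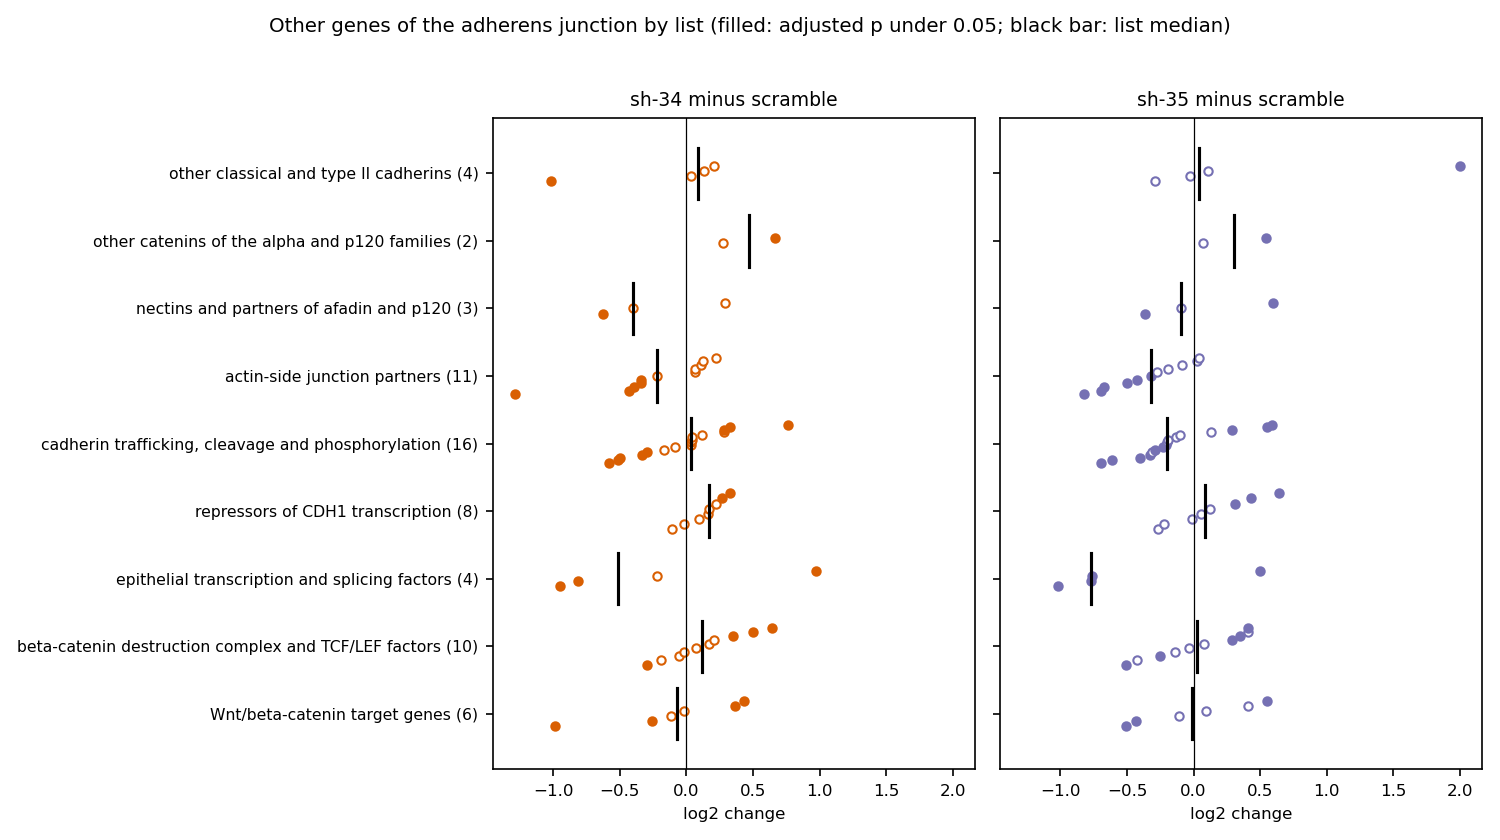
Log2 change (horizontal axis) of every tested gene in 9 lists of junction-related genes, with sh-34 minus scramble on the left and sh-35 minus scramble on the right; the number of tested genes is in brackets, filled points have a limma adjusted p under 0.05 and the bar is the list median. The actin-side list has its median at −0.22 and −0.32 and the epithelial factor list at −0.52 and −0.77, while the repressors of CDH1 lie at 0.17 and 0.09. The far right point with sh-35 is CDH11, whose scramble arrays were below background. CDH11, TCF4 and GRHL3 met the filter through the group where they were high, so their fill is a description only.

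Of 11 known repressors of CDH1 transcription, 8 were tested. SNAI1 and ZEB1 were above background on 0 arrays and ZEB2 on 1. With sh-34, CTBP1 and CTBP2, corepressors recruited by ZEB factors, were higher at 0.33 (SE 0.08; limma adjusted p = 0.0097) and 0.26 (adjusted p = 0.039), and both calls were lost with median scaling (adjusted p = 0.13 and 0.12). The CTBP2 call was also lost on leaving out any 1 of the 6 sh-34 and scramble samples. With sh-35, CTBP1 read −0.01 at its brightest probe, while a second probe was higher at 0.37 (limma adjusted p = 0.0093). A further CTBP1 probe read −0.06 with sh-35 (adjusted p = 0.81). CTBP2 read −0.23 with sh-35 (limma adjusted p = 0.064) and was called lower without sh-35 replicate 3 (−0.30; adjusted p = 0.022). With sh-35, TWIST1 averaged 9.95 ± 0.07, against 9.52 ± 0.12 in scramble (log2, SD, n = 3 each), a change of 0.43 (SE 0.09; limma adjusted p = 0.0026), and with sh-34 it read 0.23 (adjusted p = 0.070). TCF4 read 0.64 with sh-35 (SE 0.13), where 3 arrays were above background, against 1 in scramble and 0 in sh-34. It met the filter through sh-35, the group where it was high, so no p-value is given. SNAI2, which encodes SLUG, read 0.31 with sh-35 (SE 0.11; limma adjusted p = 0.043), and this call was lost in 12 of the alternatives, among them median scaling (adjusted p = 0.41), while its second probe changed by 0.38 (adjusted p = 0.0091). TCF3, KLF8 and TWIST2 read −0.11, 0.09 and 0.16 with sh-34 and −0.27, 0.05 and 0.12 with sh-35, and none passed.

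Of 13 transcription and splicing factors that maintain epithelial genes, 8 were above background on no array, among them GRHL2, ELF3 and ESRP1, and 4 were tested. KLF5, an epithelial transcription factor, averaged 7.01 ± 0.05 in sh-34, 7.05 ± 0.29 in sh-35 and 7.82 ± 0.21 in scramble (log2, SD, n = 3 each), changes of −0.81 and −0.77 (limma adjusted p = 0.0013 for each). OVOL2, which restrains mesenchymal genes, was lower with sh-35 at −0.76 (SE 0.08; limma adjusted p = 3.3e-05) and read −0.22 with sh-34 (adjusted p = 0.062), which passed without sh-34 replicate 1 (adjusted p = 0.039). GRHL3 was above background on 1 sh-34, 0 sh-35 and 3 scramble arrays. It met the filter through scramble, the group where it was high, so no p-value is given. GRHL3 read −0.95 with sh-34 (SE 0.23), and sh-35 was at least 1.42-fold lower than scramble. KLF4 was higher with both, at 0.97 (SE 0.10; limma adjusted p = 3.7e-05) and 0.50 (SE 0.10; adjusted p = 0.0024). The basal markers KRT14, KRT5 and ITGB4 moved in differing directions in the same samples, and their part in the cadherin changes was not tested.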

How the data were processed

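Biotin-labelled cRNA of 9 MCF10A samples, 3 each for sh-34, sh-35 and scramble, was measured on Illumina bead arrays. BeadStudio and Partek are named in the submitters' processing notes, without versions. The deposited table holds an intensity and a detection p-value per probe and sample, per the file headers. The deposited series matrix holds log2 values of the same signals, centred per probe. The authors' deposited table lists 358 probes with p-values, ratios and signed fold changes, and its analysis of variance score columns were not used. No source used here names a genome build.

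Intensities were background corrected (limma 3.58.1, normal-exponential model on detection p-values, offset 16), quantile normalized and log2 transformed. Probes above background on at least 3 of 9 arrays, 12866 in all, were fitted in 1 limma model of 3 groups (R 4.3.3; 6 residual and 5.19 prior degrees of freedom), with two-sided tests and Benjamini-Hochberg adjustment over all of them. Gene lists were counted with the brightest probe of each of 8931 genes. All tested member probes are named, with at most 4 tested genes of each further list (those with the smallest p), every tested repressor of CDH1, and the 5 highest and 5 lowest genes by correlation with CDH1. Further probes of a named gene and genomic neighbours are given for comparison. LEF1, CTTN, ZYX and TES are also named, as examples of genes whose probes differed in call. The members, lists and tests were chosen with earlier results of these data known. Symbols come from the array's platform annotation: 28098 probes had 1 symbol, 13 several and 20692 none, and 28059 matched RefSeq by Entrez identifier. Where a group had no array above background, folds are bounds against the dimmest signal above background. The labels do not say that equal replicate numbers pair samples. Deviations from group means correlated by −0.0141 to 0.0590 at equal numbers and by −0.0635 to 0.0444 at other numbers. Such values cannot show whether samples were paired. Alternatives covered scaling, background correction, the series matrix values, filters, 1 probe a gene, 2 groups at a time, a replicate block and each sample left out.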

Additional observations from a re-analysis of the deposited data

Results flagged for a closer look

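Members whose changes differed between the hairpins by the test of the difference itself (limma, sh-35 minus sh-34) were 5 probes of 3 genes. Among all 12866 tested probes, 20.1% were called lower and 19.1% higher in this comparison. CDH1 differed by −1.09 on the log2 scale, CDH3 by −0.88, and the JUP probes by −0.99, −1.06 and −1.03. In each of them the sh-35 samples were the lower ones, 3 of 3 below all 3 sh-34 samples. The hairpin groups were separate for 8 of the 12 tested member probes. The share of all tested probes with separate groups was not counted, so this number is a description only. Since the RND1 probe was below background in every sample, the level of the target with each hairpin cannot be set beside these differences.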

How the results depend on the processing

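The CDH1, CDH3 and JUP falls with sh-35 and the CDH1 and CDH3 falls with sh-34 kept their direction and call in every alternative that tested those probes. The CDH1 change ranged from −0.88 to −0.72 with sh-34 and from −1.97 to −1.79 with sh-35. With 1 probe per gene, 3 member probes were called between the hairpins instead of 5, since 1 JUP probe then stands for 3. With single samples left out, the member calls numbered 3 to 4 with sh-34, 5 to 6 with sh-35 and 5 to 6 between the hairpins. With replicate number as a block they numbered 3, 5 and 5, and the call lost was JUP probe 1 with sh-34. The labels do not say that these numbers pair the samples. Of 699 member changes recomputed, 676 kept their call, 17 gained one and 6 lost one, and none that was called turned its direction. Of 2559 recomputed changes of other named genes, 124 lost a call and 20 gained one, and of 780 list counts 74 moved by over 1.5 times; the cause was not tested. Higher probes made up 50.4% of all calls with sh-34, against 40.0% with median scaling and 38.1% with the series matrix values. With sh-35 the share was 48.8%, against 41.6% with median scaling, and between the hairpins 48.7%, against 60.8% with the series matrix values. Signals near the detection limit (JUP probe 3, NECTIN1, CDH10, CDH11, TCF4, GRHL3, SERPINA5, PAK6) limit what the arrays resolve for those genes. CTNND1, AFDN and RND1 have no measured level.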

Other observations

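Beta-catenin also works with TCF/LEF factors in the nucleus, and the genes around that role moved in both directions. Of 10 tested genes of the beta-catenin destruction complex and TCF/LEF factors, 1 was lower, 3 higher and 6 not called with sh-34, and 2 were lower, 3 higher and 5 not called with sh-35, by limma. Over all genes, 17.8% were lower and 18.2% higher with sh-34, and 20.5% and 19.8% with sh-35. APC, AXIN2, TCF7L1 and TCF7L2 were above background on 0 arrays. AMER1, which recruits the destruction complex to the membrane, was higher at 0.64 with sh-34 and 0.41 with sh-35 (limma adjusted p = 0.00087 and 0.010). AXIN1, the scaffold of that complex, read 0.21 with sh-34 (adjusted p = 0.098) and was lower at −0.51 with sh-35 (limma adjusted p = 0.00097). CTNNBIP1, an inhibitor of beta-catenin binding to TCF factors, was higher at 0.50 with sh-34 (limma adjusted p = 0.0050) and read 0.08 with sh-35. The sh-35 count was 3 without scramble replicate 2, without scramble replicate 3 or without sh-35 replicate 3.

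Of 12 Wnt/beta-catenin target genes 6 were tested, and 5 were above background on no array (AXIN2, NKD1, RNF43, LGR5 and NOTUM). With sh-34, 2 of the 6 were lower, 2 higher and 2 not called, beside 17.8% lower and 18.2% higher over all genes. With sh-35, 2 were lower, 1 higher and 3 not called, beside 20.5% and 19.8%. LEF1, also in the list above, read 0.41 with sh-35 at its brightest probe (limma adjusted p = 0.061). A second LEF1 probe was higher at 0.64 (adjusted p = 0.00058). CCND1, which encodes cyclin D1, was lower with sh-34 at −0.99 (SE 0.09; limma adjusted p = 1.1e-05) and read 0.09 with sh-35 (adjusted p = 0.43). DKK1, a secreted Wnt inhibitor, was higher with sh-34 at 0.36 (limma adjusted p = 0.0080), which median scaling did not call, and lower with sh-35 at −0.51 (adjusted p = 0.00083). MYC was lower with both, at −0.26 and −0.43 (limma adjusted p = 0.031 and 0.0017), and ZNRF3, a negative regulator of Wnt receptors, was higher with both, at 0.43 and 0.55 (adjusted p = 0.015 and 0.0035). The sh-34 calls of MYC and ZNRF3 were lost on leaving out any 1 of 4 and any 1 of 3 samples, and the list's sh-34 count was 2 without scramble replicate 2, sh-34 replicate 1 or sh-34 replicate 2.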
